A study of Homo sapiens with 4 samples.

Results

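The 9 genes described here are interferon-stimulated genes: IFIT1, IFIT2, IFIT3, ISG15, MX1, OAS1, OAS3, IRF1 and IRF9. They were taken by symbol from a table of 60048 human genes, and all 9 were found and passed the filter on low values. The question put to them was whether an innate response is transcribed within 3 h of cohesin loss. The cells were HCT116, a human colorectal carcinoma line of genotype RAD21-mAC, in which the cohesin subunit RAD21 carries a degron tag that lets auxin trigger degradation of the protein. Control cells received DMSO (2 libraries) and auxin cells were kept for 3 h in 0.5 mM indole-3-acetic acid, an auxin (2 libraries). Both groups carry the tag and no untagged cells given auxin were among the samples, so effects of the compound and of RAD21 loss cannot be told apart. New RNA was labelled with 0.5 mM 5-ethynyl uridine (EU) for 20 min, captured and sequenced (EU-seq).

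Interferons are secreted proteins that cells make when sensors such as cGAS or RIG-I detect DNA or RNA in the cytoplasm. Type I interferon acts through its receptor, Janus kinases and the factor ISGF3, of which IRF9 is a subunit, which binds the interferon-stimulated response element (ISRE) in target promoters. Interferon-gamma acts through another promoter element, the gamma-activated site (GAS). The genes so induced encode antiviral proteins and further transcription factors, and their RNA rises soon after the receptor is engaged.

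The promoters of 3 of the genes are shown because they carry the sites through which such a response would run. RefSeq promoters (GRCh38.p14, 250 bases before to 50 bases after a start site) were listed for 8 of the 9 genes, as 11 promoters. Both strands were searched for the ISRE core GAAANNGAAA and for the GAS TTCNNNGAA. Capitals mark the matches, which are descriptions of the letters and not measured binding. ISG15 (chr1:1013247-1013546, plus strand) holds 2 overlapping ISRE cores, the farther one beginning 113 bases before the start site. IFIT1 (chr10:89392373-89392672, plus strand) holds 2 ISRE cores on the opposite strand, beginning 116 and 103 bases before the start. IRF1 (chr5:132490724-132491023, minus strand) holds 1 GAS beginning 124 bases before the start.
ISG15: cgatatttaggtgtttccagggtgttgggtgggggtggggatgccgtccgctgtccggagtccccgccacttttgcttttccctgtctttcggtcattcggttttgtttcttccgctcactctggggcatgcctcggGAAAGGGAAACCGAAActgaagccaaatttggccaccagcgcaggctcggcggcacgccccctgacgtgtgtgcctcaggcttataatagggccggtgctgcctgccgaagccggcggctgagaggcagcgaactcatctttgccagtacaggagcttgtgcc
IFIT1: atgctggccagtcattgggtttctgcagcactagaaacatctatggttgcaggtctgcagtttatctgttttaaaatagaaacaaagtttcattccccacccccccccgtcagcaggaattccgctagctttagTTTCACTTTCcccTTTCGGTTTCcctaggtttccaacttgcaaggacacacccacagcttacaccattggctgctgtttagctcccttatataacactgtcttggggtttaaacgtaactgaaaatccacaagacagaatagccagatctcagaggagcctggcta
IRF1: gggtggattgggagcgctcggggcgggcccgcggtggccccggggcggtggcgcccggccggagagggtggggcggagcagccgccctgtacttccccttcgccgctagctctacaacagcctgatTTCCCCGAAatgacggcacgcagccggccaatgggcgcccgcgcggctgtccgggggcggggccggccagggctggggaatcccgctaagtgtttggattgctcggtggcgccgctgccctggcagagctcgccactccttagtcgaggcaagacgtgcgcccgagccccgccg
An ISRE core was present for 5 genes (IFIT1, IFIT3, ISG15, MX1 and OAS3) and a GAS for 4 (IRF1, IRF9, MX1 and OAS1). IFIT2 had no listed promoter and was not searched. The fixed pattern misses other spacings: the OAS1 promoter holds gaaacgaaa, with a shorter gap that the ISRE core as written cannot match. By promoter, 7 of the 11 hold the ISRE core (63.6%) and 4 the GAS (36.4%). Of all 35116 promoters in the RefSeq table, 3.57% hold the ISRE core and 7.66% the GAS.

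The deposited table gave 1 scaled signal per gene and library over the whole gene span, introns included. Totals ran from 61135244 to 93113007, and between 46570 and 47311 genes were above 0 in a library. The reads behind a value are unknown, so precision was judged from the spread between the 2 libraries of each group. limma pools that spread with the spread of genes of similar level, with 8.21 prior degrees of freedom in the main fit. Nothing in the labels says that replicates were separate cultures, so p-values measure the spread between these libraries only. Libraries were brought to a common scale by trimmed means of log ratios, and fold changes are on the log2(scaled signal + 1) scale, which understates changes of low genes. Less RNA per cell and fewer cells making it cannot be told apart in such bulk samples. Of the 12 epithelial markers, KRT8 (18949 to 25044), KRT18, KRT19, CDH1 and EPCAM had high signal in every library and CEACAM5 little (14.5 to 28.5). None of these 12 was called. However, 5 had an unadjusted p under 0.05 (2 higher and 3 lower). That is 41.7%, against 10.3% of all tested genes and 14.7% of tested protein-coding genes. CDH1, at 0.55 (limma adjusted p = 0.06), was called under total signal scaling (0.59, adjusted p = 0.0394). The defining leukocyte markers PTPRC (22.5 to 34.9), CD3E and MS4A1 were low throughout; the 12 leukocyte markers summed to 3145 and 3224 in control and 3043 and 3087 in auxin, mostly from CSF1R and CD68. The 10 fibroblast markers summed to 1304 and 1263 in control and 1310 and 1476 in auxin, with LUM and COL1A2 at or near 0. Not all were that low: 8 were tested, and 3 had a mean of at least 50. None was called, and 2 of the 8 (25%, 1 higher and 1 lower) had an unadjusted p under 0.05.

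None of the 9 genes changed by limma at an adjusted p under 0.05, where 0.737% of all 39464 tested genes were called (0.329% higher and 0.408% lower). At an unadjusted p under 0.05 there was 1 of the 9, IRF1, which was lower. The share was 10.3% over all tested genes and 14.7% over tested protein-coding genes. The log2 fold changes ran from -0.50 (IFIT3) to 0.41 (IFIT2); 5 were positive and 4 negative, with a median of 0.16 against 0.0013 over all tested genes. That median was -0.017 with a mean of at least 50, which leaves out OAS1, and 0.067 and 0.032 without control replicates 1 and 2 and 0.073 and 0.24 without auxin replicates 1 and 2, so its size and sign are not settled. The 95% limma intervals lay within a 2-fold change in either direction for 7 genes and passed it slightly for IFIT2 (upper bound 1.02 on the log2 scale) and IFIT3 (lower bound -1.08). A coordinated rise of these genes was thus not seen. For 8 of them the upper bound was under 1, though only just for OAS1 (0.99), a low gene whose changes this scale understates. These bounds are for the signal of the listed spans, which overlapping genes can share, and not for each gene alone.

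**Figure D1:**
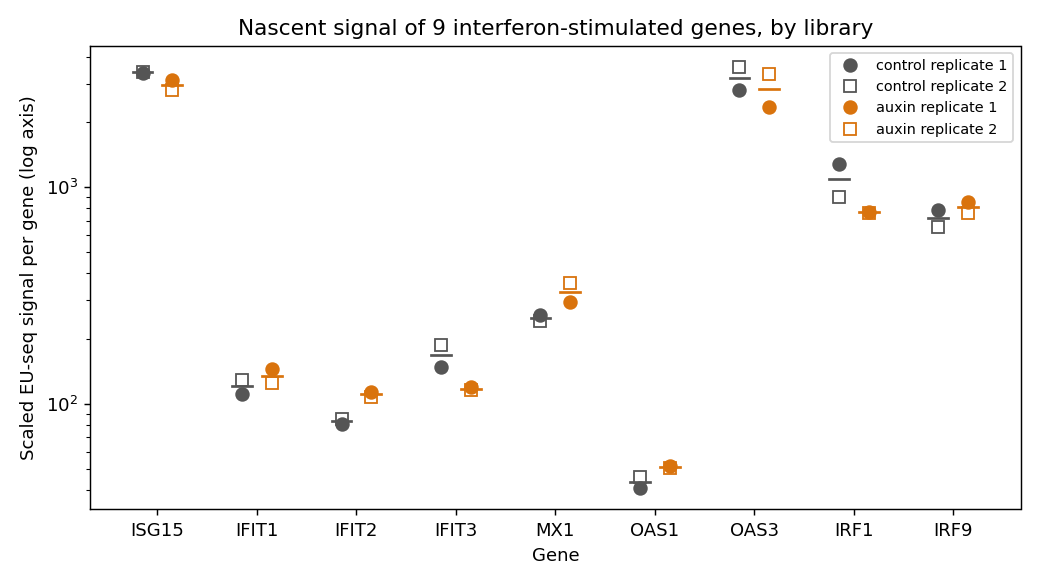
Scaled EU-seq signal of each gene (y axis, logarithmic) in the 2 control (grey) and 2 auxin (orange) libraries, with replicate 1 as circles, replicate 2 as squares and group means as bars. Signal spans from 40.8 for OAS1 to 3582 for OAS3, and the groups lie close together for every gene.

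ISG15 (ENSG00000187608, chr1:1001145-1014435, plus strand), a ubiquitin-like protein attached to other proteins during an antiviral response, had the most signal of the 9 genes per kilobase of span. Its scaled signal was 3365 and 3394 in control and 3107 and 2815 in auxin. Both auxin libraries lay below both control libraries. The log2 fold change was -0.19 (standard error 0.14, limma adjusted p = 0.773), with a 95% interval from -0.51 to 0.13. The table's span is 13291 bases and the RefSeq gene 1044 bases, so 92.9% of the span lies outside the RefSeq gene, with the table's start 12352 bases ahead of the RefSeq start. The value therefore covers mostly sequence upstream of the promoter printed above. HES4, a transcription repressor gene 972 bases beyond the lower end of this span, had a log2 fold change of -0.14 (adjusted p = 0.94).

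The 3 IFIT genes, whose products bind RNA that lacks the marks of a cell's own messenger RNA or act with those that do, lie together on chromosome 10 and did not share a direction. IFIT1 (ENSG00000185745, chr10:89392546-89406486, plus strand), which binds RNA with an incompletely methylated cap, had a signal of 111 and 129 in control and 144 and 124 in auxin. These values overlap between groups, and the log2 fold change was 0.16 (standard error 0.26, limma adjusted p = 0.948). IFIT2 (ENSG00000119922, chr10:89283694-89308900, plus strand) had 80.8 and 85.1 in control and 114 and 107 in auxin. Both auxin libraries were above both controls, with a log2 fold change of 0.41 (standard error 0.27, limma adjusted p = 0.723). IFIT3 (ENSG00000119917, chr10:89327307-89342166, plus strand), a partner that stabilises IFIT1, had 148 and 188 in control and 119 and 115 in auxin. Here both auxin libraries were below both controls, with a log2 fold change of -0.50 (standard error 0.26, limma adjusted p = 0.568). IFIT5, the next gene of the cluster, was at -0.067 (adjusted p = 0.979).

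IFIT2 and IFIT3 overlap LIPA, the gene of lysosomal acid lipase, which is annotated on the opposite strand and contains the whole span of IFIT3 and 67.1% of that of IFIT2. The table does not separate strands: in 9987 pairs of a gene nested within a longer gene of the opposite strand, 0 of 36468 values above 0 exceeded the value of the longer gene in that library (beyond rounding). The signal of IFIT3 made up 62.8% and 70.1% of that of LIPA in control and 46.7% and 51.5% in auxin. Per kilobase, IFIT3 had 9.96 and 12.6 in control and 8.02 and 7.76 in auxin, while the rest of LIPA had 2.45 and 2.24 in control and 3.81 and 3.04 in auxin. Both auxin libraries were thus below the controls inside IFIT3 and above them in the rest of LIPA. That rest includes 16910 bases shared with IFIT2, so its values and those of IFIT2 are not separate. LIPA as a whole had a log2 fold change of -0.070 (limma adjusted p = 0.981). How much of the signal in IFIT2 and IFIT3 belongs to LIPA was not tested. Of the span of IFIT2, 72.8% lies outside the RefSeq gene. The lncRNA gene AL353751.1, on the same strand as IFIT2, covers 33.2% of that span. It had a signal of 13.6 and 25.6 in control and 18.7 and 26.9 in auxin. The part of AL353751.1 in the IFIT2 value was not tested.

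MX1 (ENSG00000157601, chr21:41420020-41459637, plus strand), a dynamin-like GTPase that blocks influenza and other viruses, had a signal of 257 and 241 in control and 294 and 363 in auxin. Both auxin libraries were above both controls, with a gap of 0.30 on the log2 scale between the auxin libraries themselves. The log2 fold change was 0.39 (standard error 0.22, limma adjusted p = 0.637), and the 95% interval reached from -0.10 to 0.89. Its paralogue and neighbour MX2 was at 0.39 (adjusted p = 0.856) with a signal of only 34.0 to 59.3, and TMPRSS2 on the other side was at 0.056 (adjusted p = 0.991).

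The OAS proteins make oligoadenylates that activate the antiviral nuclease RNase L. OAS1 (ENSG00000089127, chr12:112907007-112933219, plus strand) had the least signal of the 9 genes, 40.8 and 46.1 in control and 51.6 and 50.4 in auxin. The auxin libraries lay above the controls by less than the error of the fit, with a log2 fold change of 0.23 (standard error 0.34, limma adjusted p = 0.937). OAS3 (ENSG00000111331, chr12:112938474-112973251, plus strand) had 2809 and 3582 in control and 2337 and 3310 in auxin. In both groups replicate 2 was the higher, and the groups overlap, with a log2 fold change of -0.19 (standard error 0.20, limma adjusted p = 0.87) that turned to 0.073 without auxin replicate 1. OAS2, which lies 5143 bases beyond OAS3, had 16.2 and 37.9 in control and 48.0 and 90.7 in auxin, with a log2 fold change of 1.38 (standard error 0.49, limma adjusted p = 0.317).

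The lncRNA gene AC004551.1 runs antisense across all of OAS3 and OAS2 and 97.6% of OAS1. Its signal was 2942 and 3775 in control and 2523 and 3545 in auxin. The summed signal of OAS1, OAS2 and OAS3 came to between 96.6% and 97.4% of it in the 4 libraries. OAS3 provides nearly all of that sum, so the sense and antisense entries hold the same signal, and which strand it came from cannot be told from this table.

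**Figure D2:**
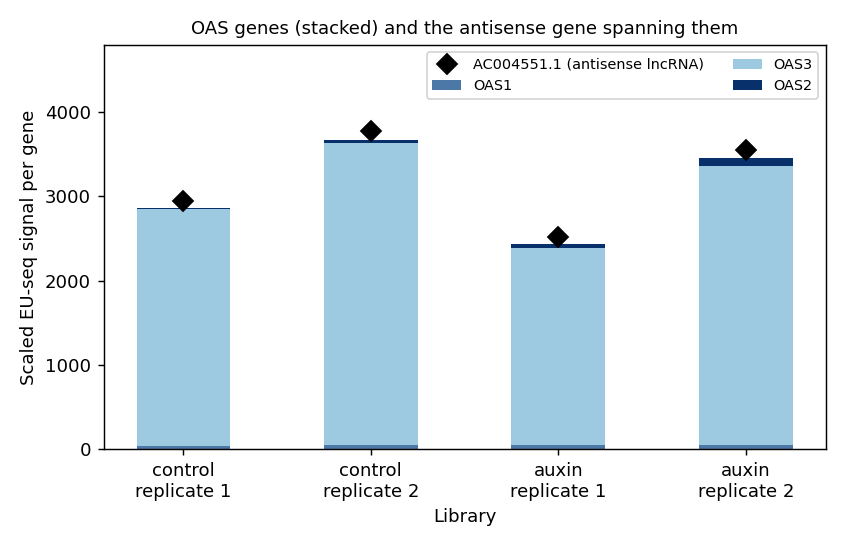
Stacked bars give the scaled EU-seq signal (y axis, linear from 0) of OAS1, OAS3 and OAS2 in each of the 4 libraries, and diamonds that of the antisense gene AC004551.1. Each diamond sits just above its stack, which holds 96.6% to 97.4% of the antisense value.

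The 2 transcription factors of the set did not share a direction. IRF1 (ENSG00000125347, chr5:132481609-132490773, minus strand), an activator induced by interferon-gamma, had a signal of 1279 and 902 in control and 766 and 762 in auxin. Both auxin libraries lay below both controls and were close to each other, while the controls differed by 0.50 on the log2 scale. The log2 fold change was -0.49 (standard error 0.21, limma adjusted p = 0.434, unadjusted p = 0.0375), with a 95% interval from -0.95 to -0.034. Leaving out control replicate 1 gave -0.22 and leaving out control replicate 2 gave -0.74, so its size rested on the choice of control library. IRF1-AS1 and AC116366.1, annotated on the opposite strand, overlap 77.4% and 100% of IRF1 and share its signal; they had log2 fold changes of 0.19 (adjusted p = 0.844) and 0.019 (adjusted p = 0.991). Their part in the IRF1 value was not tested.

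IRF9 (ENSG00000213928, chr14:24161265-24166565, plus strand), the DNA-binding subunit of ISGF3, had a signal of 788 and 658 in control and 857 and 757 in auxin. The groups overlap, and the log2 fold change was 0.16 (standard error 0.19, limma adjusted p = 0.899). AL136295.5, on the same strand, covers 97.9% of IRF9 and was at -0.16 (adjusted p = 0.895). The nearest neighbours RNF31 and REC8 were at -0.24 (adjusted p = 0.787) and -0.49 (adjusted p = 0.413). STAT2, a partner of IRF9 in ISGF3, was at 1801 and 1757 in control and 2341 and 2094 in auxin (log2 fold change 0.32, adjusted p = 0.543).

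**Figure D3:**
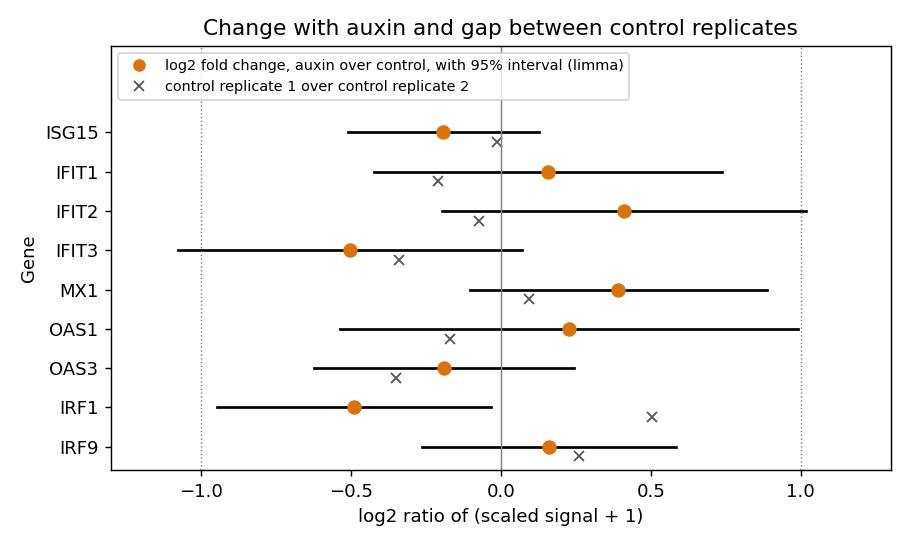
Log2 fold change of each gene, auxin over control, with its 95% limma interval (orange points and black lines), and the log2 ratio of control replicate 1 over control replicate 2 (crosses); dotted lines mark a 2-fold change. The intervals of 8 genes include 0 and that of IRF1 ends at -0.034, while the controls of IRF1 differ by 0.50.

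For 4 of the 9 genes (OAS3, IRF1, IRF9 and IFIT1) the gap between the replicates of 1 group was at least as large as the change with auxin. The groups did not overlap for 6 genes, of which MX1, IFIT2 and OAS1 were higher and IRF1, IFIT3 and ISG15 lower with auxin. Over all tested genes the groups did not overlap for 38.3% (18.0% higher and 20.2% lower), so such separation is common in this table with 2 libraries a group. The median log2 ratio over the 9 genes was 0.12 between auxin and control replicates 1 and -0.055 between auxin and control replicates 2, with 5 and 4 genes higher. The cross pairs, auxin replicate 1 over control replicate 2 and auxin replicate 2 over control replicate 1, both gave 0.16, with 5 genes higher in each.

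Levels differed far more between the genes than between the groups. Per kilobase of span, the control means were 254 ± 1.55 for ISG15, 136 ± 17.4 for IRF9, 119 ± 29.1 for IRF1, 91.9 ± 15.7 for OAS3 and 11.3 ± 1.88 for IFIT3 (SD, n = 2 each). They were 8.63 ± 0.895 for IFIT1, 6.28 ± 0.289 for MX1, 3.29 ± 0.118 for IFIT2 and 1.66 ± 0.142 for OAS1. In control, IRF9 and IRF1, and IRF1 and OAS3, overlapped between libraries, and the other neighbours in this order did not. In auxin, IRF1 and OAS3 overlapped, MX1 overlapped both IFIT1 and IFIT3, and both libraries of IFIT3 (7.89 ± 0.186) were below both of IFIT1 (9.63 ± 1.01). The spans of ISG15, IRF9, IRF1 and OAS3 thus held more signal per kilobase than those of the other 5 genes in both conditions. These are signals of spans, which IRF9, IRF1 and OAS3 share with the overlapping genes named above and which for ISG15 lie mostly outside the RefSeq gene. On the scaled signal per gene, they lay between the 25.4th percentile of tested genes (OAS1) and the 82.1st (ISG15).

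The wider pathway was read from lists of 142 other genes, of which 120 were tested. None was called by limma at an adjusted p under 0.05, and 16 had an unadjusted p under 0.05 (11 higher and 5 lower), which is 13.3% of them against 10.3% of all tested genes and 14.7% of tested protein-coding genes. In total 70 had a positive and 50 a negative log2 fold change, with a median of 0.050.

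Of 42 other genes commonly induced by type I interferon, 40 were tested, 0 were called and 8 had an unadjusted p under 0.05 (6 higher and 2 lower). These 8 are 20% of the 40, against 10.3% of all tested genes and 14.7% of tested protein-coding genes. Over all tested genes, 1817 were higher and 2254 lower at that threshold. The median log2 fold change of the 40 was 0.037, with 23 positive and 17 negative. The smallest p belonged to HERC5 (ENSG00000138646, chr4:88457119-88506163, plus strand), the ligase that attaches ISG15 to proteins. It had 637 and 755 in control and 389 and 343 in auxin (log2 fold change -0.92, standard error 0.20, limma adjusted p = 0.0851). Its paralogue HERC6 had the opposite sign, at 0.48 (adjusted p = 0.293).

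Of 26 interferon-gamma and antigen presentation genes, 23 were tested and 0 called. Of the 23, 16 were positive and 7 negative, with a median of 0.12. At an unadjusted p under 0.05 there were 2 (8.7%), 1 in each direction, against 10.3% of all tested genes. GBP3 (ENSG00000117226, chr1:89006680-89022866, minus strand), a guanylate-binding GTPase, had the smallest p of all the interferon lists. It had 230 and 204 in control and 458 and 456 in auxin, a log2 fold change of 1.07 (standard error 0.21, limma adjusted p = 0.0557). Among its relatives, GBP1 was at -0.20 (adjusted p = 0.976) and GBP2 at 0.013 (adjusted p = 0.999), both with a much lower signal. Of the class I antigen presentation genes, TAP2 was at 0.093 (adjusted p = 0.948) and B2M at 0.13 (adjusted p = 0.911). NLRC5, of the same list, was at -0.36 (limma adjusted p = 0.453). The chemokine gene CXCL10, a sensitive readout of interferon, was listed at 0 in all 4 libraries.

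Upstream of the response, most ligand genes had little or no signal. Of 18 interferon genes only IFNK, IFNL1 and IFNL2 passed the filter, and 9 were listed at 0 in every library. IFNL1, a type III interferon, had the most signal of the 18, 76.6 and 45.1 in control and 49.8 and 21.3 in auxin, with groups that overlap (log2 fold change -0.83, standard error 0.47, limma adjusted p = 0.634). IFNB1, the first type I interferon made by most cells, was listed at 0 in 3 libraries and at 2.05 in control replicate 2. IFNK had 9.36 and 0 in control and 28.5 and 21.3 in auxin (log2 fold change 2.99, standard error 1.02, limma adjusted p = 0.292), and the value moved to 4.67 and 1.32 at pseudocounts of 0.1 and 10, and to 4.69 and 1.31 when control replicate 1 or 2 was left out. Values of near-identical interferon copies such as IFNL2 and IFNL3 are uncertain, since reads may be shared between copies.

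Sensors, receptors and regulators were transcribed in both groups without a call. Of the 17 sensing genes, 0 were called and 0 had an unadjusted p under 0.05; the smallest p was that of the adaptor TRAF3 (log2 fold change -0.25, adjusted p = 0.492). The DNA sensor CGAS had 121 and 122 in control and 92.5 and 109 in auxin (adjusted p = 0.859). The RNA sensor RIGI had 3017 and 2607 in control and 3385 and 3270 in auxin (adjusted p = 0.672). Of the 12 receptor and signalling genes, 8 were positive with a median of 0.22. At an unadjusted p under 0.05 there were 2 (16.7%), against 10.3% of all tested genes and 14.7% of tested protein-coding genes. The smaller p was that of IL10RB (0.64, limma adjusted p = 0.161), a receptor chain shared by interferon lambda and interleukin receptors. Of the other interferon regulatory factors, 5 of 7 were tested and all 5 were positive (median 0.26).

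Of the 10 genes that limit a cell's own nucleic acid, 7 were negative with a median of -0.13. Of the 10, 2 (20%) had an unadjusted p under 0.05, against 10.3% of all tested genes and 14.7% of tested protein-coding genes. Both were lower. The smaller p was that of PNPT1 (ENSG00000138035, chr2:55634061-55693844, minus strand), a mitochondrial RNA-degrading enzyme that is itself inducible by interferon. It had 8614 and 8918 in control and 6216 and 6120 in auxin (log2 fold change -0.51, standard error 0.12, limma adjusted p = 0.118). Of the 10 negative regulators, 0 were called and 0 had an unadjusted p under 0.05; the smallest p was that of SOCS3 (-0.36, adjusted p = 0.544), which restrains Janus kinases, and SOCS1 was at 0.00028 (adjusted p = 1).

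**Figure D4:**
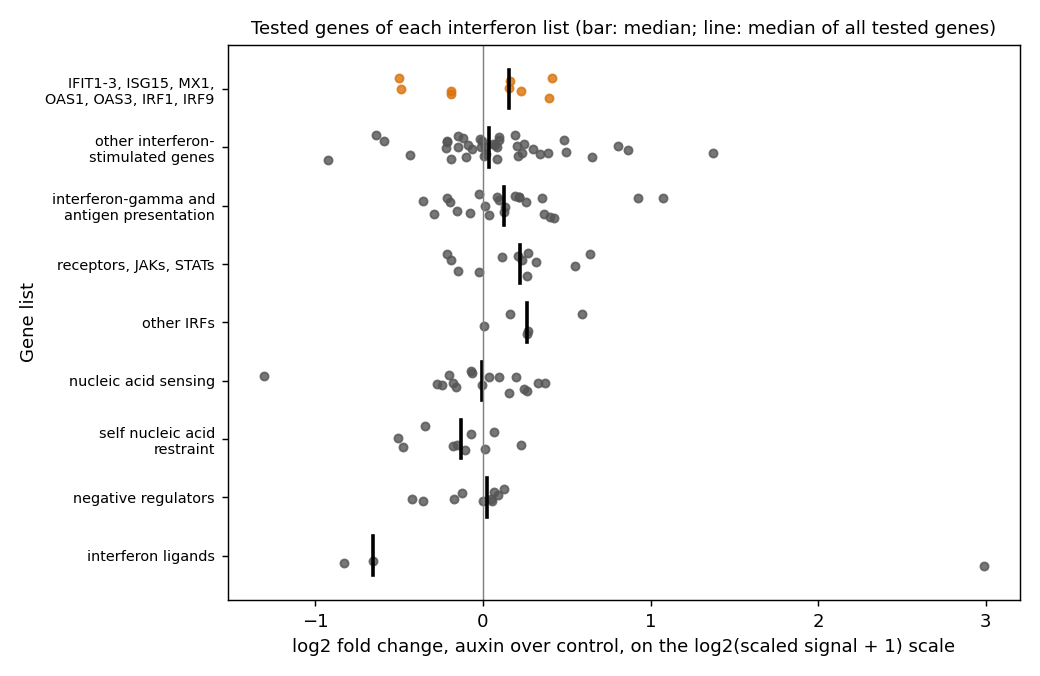
Log2 fold change, auxin over control (x axis), of every tested gene in each interferon list, with a black bar at the list's median and a grey line at the median of all tested genes. No point is called; the medians lie between -0.13 and 0.26 except for the 3 tested ligands, at -0.66.

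Among 110 genes of these lists with a mean of at least 50, the 3 whose pattern over the 4 libraries lay nearest to that of IRF1 were NLRC5, PARP12 and ISG20, with Euclidean distances of 0.27, 0.33 and 0.35 between centred log2 values. Each had control replicate 1 as its highest library, as IRF1 did, which the choice by nearness to IRF1 favours. None was called, with log2 fold changes of -0.36 (NLRC5, adjusted p = 0.453), -0.22 (PARP12, adjusted p = 0.721) and -0.15 (ISG20, adjusted p = 0.898). The 13 nearest flanking genes of the set held 0 calls and 2 (15.4%) at an unadjusted p under 0.05. Over all tested genes that share was 10.3%, and over tested protein-coding genes 14.7%. The median log2 fold change of the flanking genes was 0.049.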

How the data were processed

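EU-seq was measured in 4 libraries, grouped by their titles. Fly S2 cell mRNA (20 µg) was added to 200 µg of rRNA-depleted human RNA before capture, per the labels' protocols. The submitters' processing notes name Trimmomatic 0.39, Bowtie2 2.4.5, deepTools 3.5.1 and the builds hg38 and dm6, with no role; how reads became values is not given in the sources used here. The authors deposited 1 scaled signal per gene and library; a step is not a read, since of 22246 genes over 10000 bases only 2 to 8 per library held exactly 1 step and 141 to 221 held 2. A misspelt column was taken as control replicate 2 by its number. Starts are printed 1 higher than in the table, which counts from 0; spans of IRF1, OAS3 and IRF9 then equal RefSeq's.

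Genes were tested where 2 or more libraries reached 10, on the scale of a library of median total, and the 4 values summed to 15 or more. Libraries were divided by TMM-type factors of 0.995, 1.01, 0.818 and 1.21 (control replicates 1 and 2, auxin replicates 1 and 2), which removes any change in total nascent RNA. limma 3.58.1 (R 4.3.3; lmFit, eBayes with trend) fitted log2(value + 1) over all tested genes without further terms, with Benjamini-Hochberg adjustment and a threshold of 0.05. Scripts were tested on simulated data; figures used Python 3.11.15 and matplotlib 3.10.9. Genes were named by rule: the 9 genes, their overlapping and flanking genes, and the gene of smallest p in each list, plus the 3 nearest patterns; other names were chosen after their values were seen. Some items of the lists are not reported here. The members and lists were chosen with earlier results of these data known. The alternatives tried were other scalings, filters and pseudocounts, a replicate term and leaving out each library.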

Additional observations from a re-analysis of the deposited data

How the results depend on the processing

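The count of 0 among the 9 genes held under median-ratio scaling, total signal scaling, the deposited scale, no filter, a mean of at least 50, pseudocounts of 0.1 and 10, and without each library in turn (0 to 0). With the replicate block it was 1: IRF1 (log2 fold change -0.49, limma adjusted p = 0.00617; range over its other settings 0.209 and above). That fit called 4314 genes over all tested, and 18 of 120 in the other interferon lists (11 higher, 7 lower), among them HERC5, GBP3 and PNPT1. Its prior degrees of freedom were infinite, as they also were on the deposited scale and without auxin replicate 1 or 2. The 2 replicate numbers, which the labels do not tie to a day or batch, do not establish pairing (r = 0.231 across genes between the replicate differences of the groups). The median of the 9 genes was -0.017 with a mean of at least 50, which leaves out OAS1, and ranged from 0.032 to 0.24 without one library; the cause of the range was not tested. OAS3 ranged from -0.44 to 0.073 without one library, the latter without auxin replicate 1; the other 8 genes kept their sign in all 12 alternatives (11 for OAS1). The 291 genes called over all tested became 55 on the deposited scale, 147 and 164 without control replicates 1 and 2, and 679 and 534 without auxin replicates 1 and 2. With 2 libraries a group, changes under 2-fold can be missed, and so can larger ones. In the main fit OAS2 (log2 fold change 1.38), GBP3 (1.07) and IFNK (2.99) were not called. The count of 0 alone therefore sets no bound on the change of a gene.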
